A study of Mus musculus with 4 samples.

Results

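Many enzymes of glycolysis and of the pyruvate branch point exist in the testis in a form found throughout the body and in a form restricted to spermatogenic cells. The signals of 10 such isozyme genes were followed in testes of hypogonadal (hpg) mice, 4 of them germ-cell forms (Pgk2, Ldhc, Gapdhs and Pdha2) and 6 somatic or general forms (Pgk1, Ldha, Ldhb, Pdha1, Hk1 and Eno1). The members were all probe sets, each a set of oligonucleotides against 1 transcript, whose only gene symbol in the array's annotation was 1 of these 10. This gave 9 of the 10 genes, of 8251 genes named on the array, and 11 of its 12488 probe sets; no probe set was matched to Eno1, whose signal is not analysed here, so that it enters the promoter counts only.

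Total RNA from testis was measured on 4 one-colour arrays, 1 per sample. All samples came from hpg mice, which lack gonadotropin-releasing hormone and so have little testosterone of their own, and all labels state a first course of testosterone proprionate (the labels' spelling of the injectable ester testosterone propionate) followed by its withdrawal. The group titled T+O holds 1 array, with a first course of 2 weeks and nothing after the withdrawal. The group titled T+T holds 3 arrays, and the titles set it against T+O as testes given testosterone again. For T+T replicate 1 the description adds a second treatment of 4 hours and gives no length for the first course. For T+T replicates 2 and 3 the description gives 2 weeks and ends at the withdrawal, so their place in T+T rests on the title. Strain, age and the number of animals per sample are not given in the labels, and nothing says whether the T+T samples came from separate animals, so p-values measure only the spread between these samples.

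Glycolysis splits glucose into pyruvate, which is either reduced to lactate by lactate dehydrogenase or oxidised to acetyl-CoA by the pyruvate dehydrogenase complex. In the seminiferous tubule, Sertoli cells release lactate that meiotic and postmeiotic germ cells take up as fuel, while sperm make much of the ATP for motility by glycolysis along the flagellum. Pgk1 and Pdha1 lie on the X chromosome, which is silenced in meiotic spermatocytes, and Pgk2 and Pdha2 are autosomal copies of them that arose by retroposition and are used in spermatogenic cells. Ldhc arose by gene duplication, and Gapdhs encodes the glyceraldehyde-3-phosphate dehydrogenase of the sperm fibrous sheath.

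The promoters of the Pgk and Ldh pairs are shown because the germ-cell and somatic forms of these enzymes, read side by side below, differ visibly in the density of CG dinucleotides, which are given in capitals. Each sequence holds the 250 bases before the annotated gene start, 5′ to 3′ in the sense of the gene, from RefSeq's annotation of mouse assembly GRCm38.p6. Where a gene has several annotated starts, the first one listed is printed.
Pgk1 (somatic), chrX:106186850-106187099, plus strand: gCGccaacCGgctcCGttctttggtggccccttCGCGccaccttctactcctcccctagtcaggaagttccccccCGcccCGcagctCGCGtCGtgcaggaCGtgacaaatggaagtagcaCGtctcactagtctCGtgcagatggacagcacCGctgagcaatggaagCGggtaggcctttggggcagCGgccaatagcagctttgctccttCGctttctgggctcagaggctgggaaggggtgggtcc
Pgk2 (germ cell), chr17:40208610-40208859, minus strand: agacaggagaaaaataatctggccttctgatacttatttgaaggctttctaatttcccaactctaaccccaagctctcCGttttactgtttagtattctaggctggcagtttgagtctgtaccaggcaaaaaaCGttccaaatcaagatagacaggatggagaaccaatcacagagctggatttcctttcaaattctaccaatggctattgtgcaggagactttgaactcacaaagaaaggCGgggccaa
Ldha (somatic), chr7:46845554-46845803, plus strand: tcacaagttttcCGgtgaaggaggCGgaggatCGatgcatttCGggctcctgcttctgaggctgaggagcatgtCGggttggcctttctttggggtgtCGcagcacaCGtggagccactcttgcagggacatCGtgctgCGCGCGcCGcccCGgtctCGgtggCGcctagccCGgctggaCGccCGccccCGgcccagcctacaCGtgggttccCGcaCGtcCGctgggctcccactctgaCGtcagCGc
Ldhc (germ cell), chr7:46861013-46861262, plus strand: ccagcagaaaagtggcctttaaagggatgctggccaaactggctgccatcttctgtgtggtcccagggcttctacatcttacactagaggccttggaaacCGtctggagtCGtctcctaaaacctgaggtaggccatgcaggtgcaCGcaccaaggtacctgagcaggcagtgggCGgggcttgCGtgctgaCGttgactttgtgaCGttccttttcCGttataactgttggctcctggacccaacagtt

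The Pgk1 window held 17 CG dinucleotides and the Pgk2 window 3. The Ldha window held 25 and the Ldhc window 8. Over all 32851 RefSeq promoter windows of this length the median was 6. All 10 genes had a promoter entry, with 16 starts in all. The windows of Eno1 starts 2 and 3 share most of their bases, and those of the Ldhc starts share a few. Of the 6 windows of germ-cell isozymes, 1 lay above that median (the printed Ldhc window), and the counts ran from 0 to 8. Of the 10 windows of somatic isozymes, 9 lay above it, with counts from 1 to 25; the exception was the first listed start of Hk1. The Pdha pair had 15 in Pdha1 and 4 in Pdha2, and the starts of Gapdhs had 1 and 0.

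**Figure D1:**
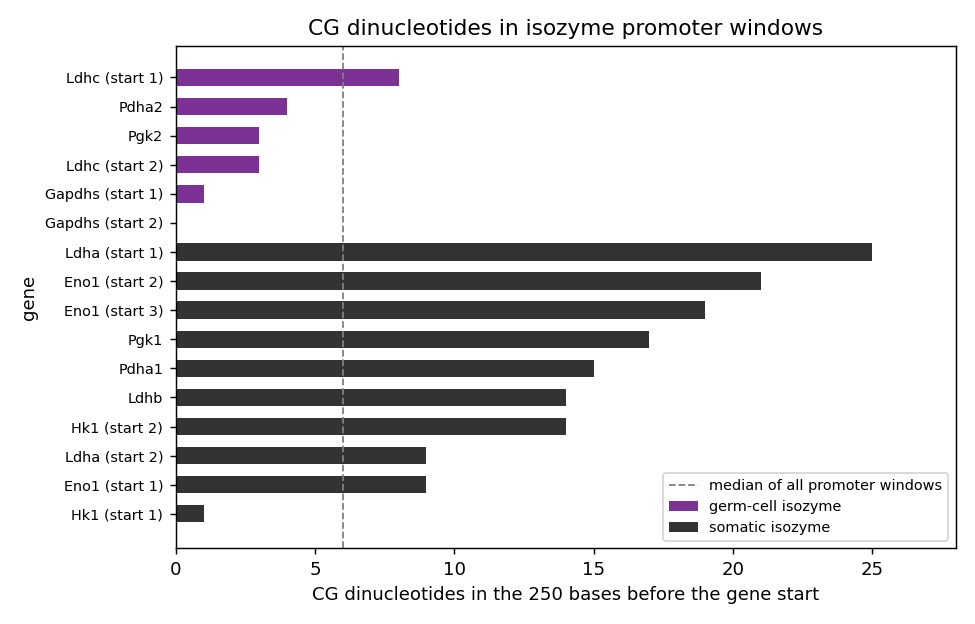
Number of CG dinucleotides (x axis) in the 250 bases before each annotated start of the 10 isozyme genes (y axis), germ-cell isozymes in purple and somatic ones in dark grey; the dashed line is the median of all 32851 promoter windows, 6. Germ-cell windows hold 0 to 8 and somatic windows 1 to 25.

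Short motifs were searched on both strands of the same windows. The GC box GGGCGG was in 4 of 10 somatic and 1 of 6 germ-cell windows (the printed Ldhc window), against 32.74% of all windows. The letters TGACG, the core of the cyclic AMP response element, were in 3 of the 16 windows and in 17.77% of all windows. The printed Ldhc window held them at 2 separate places. In the printed Ldha window both matches were the strands of 1 full element, TGACGTCA, which reads the same on either strand and was in 1.546% of all windows. CCAAT was in 4 of 10 somatic and 1 of 6 germ-cell windows, against 33.85% of all windows. It occurred 2 times in the Pgk2 window and 1 time in the Pgk1 window. For both CCAAT and the GC box, the overlapping windows of Eno1 starts 2 and 3 each count, so shared sites enter more than once. TATAAA was in the Pdha2 window alone among the 16, against 12.37% of all, and CACGTG was in the printed Ldha window alone, against 6.021%. A match describes these letters only, and the arrays measured no binding to them.

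The deposited signals are linear intensities, and the arrays had medians of 25.4 to 48.3 without the 66 control probe sets. Each array was therefore scaled to a common trimmed mean, without the top and bottom 2% of its probe sets. Signals below are in these scaled units, and differences are T+T minus T+O on the scale of log2(signal + 10). Of the 11 member probe sets, 10 passed the filter on low signals, a mean over the arrays above 22.7, which 7453 of 12422 probe sets passed in all. The second Ldhb probe set, 161945_at, did not pass, with 1.28 on the T+O array and 1.38, 2.92 and 1.32 on T+T replicates 1, 2 and 3. The level of a probe set depends on its oligonucleotides, so signals are compared between arrays and not between genes. Of 12 listed genes of condensing spermatids, 10 were measured and kept, and they summed to 32032 on T+O and to 38984, 41810 and 31920 on T+T replicates 1, 2 and 3. The transition protein Tnp2 and the protamine Prm1, with 7942 and 7912 on T+O, made up much of that sum, while Prm2 was dim, at 25.5 on T+O and 35.4, 29.3 and 58.1 on T+T. No marker of this list was at 0. Of 11 listed Sertoli cell genes 8 were kept (Amh was named and too dim), with sums of 2340 on T+O and 2350, 2717 and 2720 on T+T. Clu, with 1589 on T+O, made up most of that sum. Kitl went the other way, with 49.9 on T+O and 14.4, 12.6 and 17.4 on T+T, a log2 difference of -1.28. Of the 8 Sertoli cell genes, 7 had a difference above 0. Of 8 listed Leydig cell genes 5 were kept (Hsd3b6 and Hsd17b3 were too dim), with sums of 346 on T+O and 351, 301 and 390 on T+T.

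Isozyme signals in T+T were 0.656-fold (Pdha1) to 1.23-fold (Hk1) those on T+O, on the offset scale. None of the 10 member probe sets passed the test (limma with Benjamini-Hochberg adjustment over all 7453 probe sets), where 0.0268% of all probe sets did. None had an unadjusted p under 0.05, against 7.80% of all. A shift of 1.5-fold or more from T+O, in 1 direction on each of the T+T arrays, was seen for none of the 10, against 4.04% of all. The log2 differences ran from -0.61 for Pdha1 to 0.30 for Hk1, and 7 of 10 were above 0, against 53.7% of all probe sets. T+O lay below all 3 T+T arrays for 5 of the 10 (Hk1, Pgk1, Pgk2, Ldha and Pdha2), against 29.5% of all, and above all 3 for 1 (Pdha1), against 23.7%.

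Hexokinase 1, which phosphorylates glucose on entry and has germ-cell transcripts of its own besides the general one, had a signal of 563 on T+O and 701, 771 and 626 on T+T replicates 1, 2 and 3. The T+O array was lowest, and replicate 3 lay nearest to it. The difference in log2 was 0.30 ± 0.19 (SE), a 1.23-fold higher mean with a 95% interval of 0.915 to 1.66 (limma, adjusted p = 0.76).

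Gapdhs was measured by a bright and a dimmer probe set. The bright one, 102946_r_at, had 6101 on T+O and 7407, 7136 and 5372 on the T+T arrays. The dimmer one, 160950_at, had 1494 on T+O and 1695, 1474 and 1174. On both, T+O lay within the T+T values, and T+T replicate 3 was the lowest of the 4 arrays. The log2 differences were 0.11 and -0.06, each with an SE of 0.22 (limma, adjusted p = 0.96 and 0.98), so the signs of the probe sets differed. After quantile scaling the first became -0.18, and without T+T replicate 3 the second became 0.080.

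The somatic partner Gapdh was read from the array's own control probe sets, placed along its transcript, because its other probe sets carry several symbols. The 5′ set had 934 on T+O and 1536, 1499 and 1314 on T+T, so that T+O was lowest. The 3′ set had 1121 on T+O and 1361, 1255 and 1063, so that T+O lay within the T+T values. The 3′ to 5′ ratio, a sign of RNA integrity, was 1.20 on T+O and 0.844 ± 0.039 (SD, n = 3) on T+T. For the control gene pyruvate carboxylase it was 3.76 on T+O and 1.90 ± 0.12 (SD, n = 3) on T+T, and for beta-actin 1.53 against 1.41 ± 0.24. The 5′ set of pyruvate carboxylase was dim, at 35.3 on T+O and 90.6, 72.6 and 80.0 on T+T, so its ratio is less certain. T+O stood apart on the Gapdh and pyruvate carboxylase ratios and not on that of beta-actin.

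Phosphoglycerate kinase makes the first ATP of glycolysis. Pgk2, its germ-cell form, had 576 on T+O and 593, 708 and 594 on T+T replicates 1, 2 and 3. T+T replicates 1 and 3 were within a few per cent of T+O, and replicate 2 was the high one. The difference in log2 was 0.13 ± 0.19 (SE), a 1.09-fold higher mean with a 95% interval of 0.811 to 1.47 (limma, adjusted p = 0.93). Pgk1, the X-linked form, had 87.6 on T+O and 102, 103 and 107 on T+T. The T+T arrays were the tightest of any member, at 104 ± 2.53 (SD, n = 3), and all lay above T+O. The difference in log2 was 0.22 ± 0.21 (SE, moderated towards probe sets of like signal; limma, adjusted p = 0.86).

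Lactate dehydrogenase interconverts pyruvate and lactate as a tetramer. Ldhc, the germ-cell subunit, had 5073 on T+O and 5861, 6071 and 4713 on T+T. As for Gapdhs, replicate 3 was the lowest array and T+O lay within the T+T values. The difference in log2 was 0.12 ± 0.20 (SE) (limma, adjusted p = 0.94), and it became -0.12 after quantile scaling. The summed signal of the condensing spermatid genes had the same order in part, with T+T replicates 1 and 2 above T+O and replicate 3 just below it. Other germ-cell lists had other orders. The 8 kept round spermatid genes summed to 4945 on T+O and 4752, 5296 and 4086 on T+T. The 5 kept spermatocyte genes summed to 2984 on T+O and 2953, 3238 and 3226 on T+T. Hspa2 and Meig1, with 1533 and 782 on T+O, made up much of that sum. Sycp1 went the other way, with 390 on T+O and 13.5, 38.5 and 36.2 on T+T. Its log2 difference of -3.42 was the lowest of all 7453 probe sets, while 4 of the 5 spermatocyte genes were above 0. In the sums, replicate 1 lay below T+O on both lists, and replicate 3 lay above it for spermatocytes. The part of such sums in the values of Ldhc and Gapdhs was not tested. In RNA of a whole organ, fewer cells of a type and less RNA per cell cannot be told apart. Ldha, the subunit typical of lactate-producing tissue, had 2982 on T+O and 3823, 3626 and 3255 on T+T, all above T+O. The difference in log2 was 0.25 ± 0.18 (SE), a 1.19-fold higher mean with a 95% interval of 0.898 to 1.58 (limma, adjusted p = 0.80). Ldhb, the subunit typical of oxidative tissue, had 175 on T+O and 127, 140 and 195 on T+T. T+T replicate 3, the lowest array for Ldhc, was here the highest, and replicate 1 was the lowest. The difference in log2 was -0.20 ± 0.26 (SE; limma, adjusted p = 0.92), and it was -0.080 without T+T replicate 1 and -0.37 without replicate 3.

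The E1 alpha subunit of pyruvate dehydrogenase carries the sites by which the complex is switched off. Pdha2, the germ-cell form, had 962 on T+O and 1181, 1088 and 1037 on T+T, all above T+O. The difference in log2 was 0.19 ± 0.17 (SE), a 1.14-fold higher mean with a 95% interval of 0.869 to 1.503 (limma, adjusted p = 0.86). Pdha1, the X-linked form, was dim, with 44.6 on T+O and 34.5, 40.9 and 10.4 on T+T. The value on T+T replicate 3 lay under the filter level of 22.7. T+T replicates 1 and 2 differed from T+O by -0.30 and -0.10 in log2. The log2 difference of -0.61 had an SE of 0.53 (limma, adjusted p = 0.85) and became -0.20 when T+T replicate 3 was left out. Leaving out replicate 2 gave -0.86, and leaving out replicate 1 gave -0.76. T+T replicate 3 on its own differed from T+O by -1.42, which the fit with a block on the deposited level also gives (limma, unadjusted p = 0.0098, adjusted p = 0.48).

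**Figure D2:**
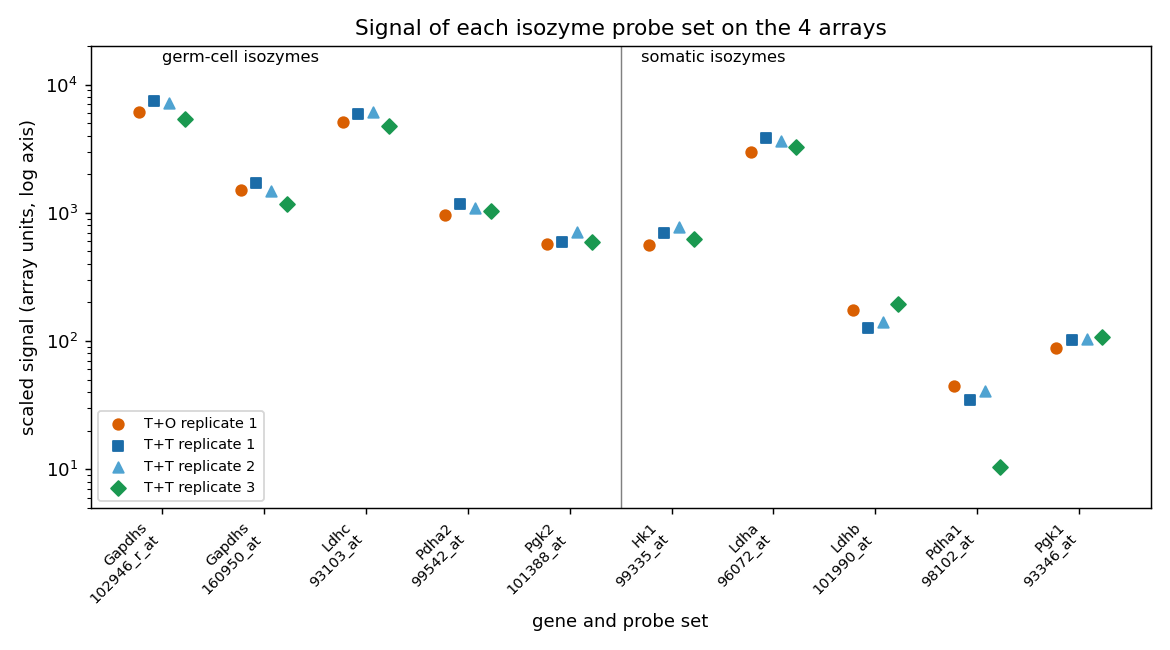
Scaled signal (y axis, log scale, array units) of the 10 kept isozyme probe sets (x axis), 1 point per array, germ-cell isozymes left of the line and somatic ones right of it. T+T replicate 3 is the lowest array for both Gapdhs probe sets, Ldhc and Pdha1 (10.4) and the highest for Ldhb (195) and Pgk1 (107).

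The germ-cell isozymes, taking the brightest probe set of each gene, had a median log2 difference of 0.12 over 4 genes, from 0.11 for Gapdhs to 0.19 for Pdha2. The 5 measured somatic isozymes had a median of 0.22, from -0.61 to 0.30. The median over all 7453 probe sets was 0.026. The germ-cell median was 0.050 without T+T replicate 2 and 0.23 without replicate 3, and 0.0091 after quantile scaling. Hk1, Ldha and Pgk1 kept the sign of their difference under all 14 alternatives run. Those that change only the filter or the intensity trend could not alter it. Hk1, the brighter Gapdhs set, Ldha and Ldhc were picked out by their values with T+T replicate 3 left out. Their log2 differences there were 0.38, 0.25, 0.32 and 0.23. With replicate 1 left out they were 0.30, 0.021, 0.20 and 0.076, and with replicate 2 left out 0.23, 0.048, 0.24 and 0.051.

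Title and description match on the second treatment for T+T replicate 1, and on its absence for T+O. Between these arrays, without replication, 8 of the 10 probe sets were higher in T+T replicate 1, against 54.1% of all. The log2 differences ran from -0.43 for Ldhb to 0.36 for Ldha. None reached 1.5-fold, against 17.8% of all probe sets.

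**Figure D3:**
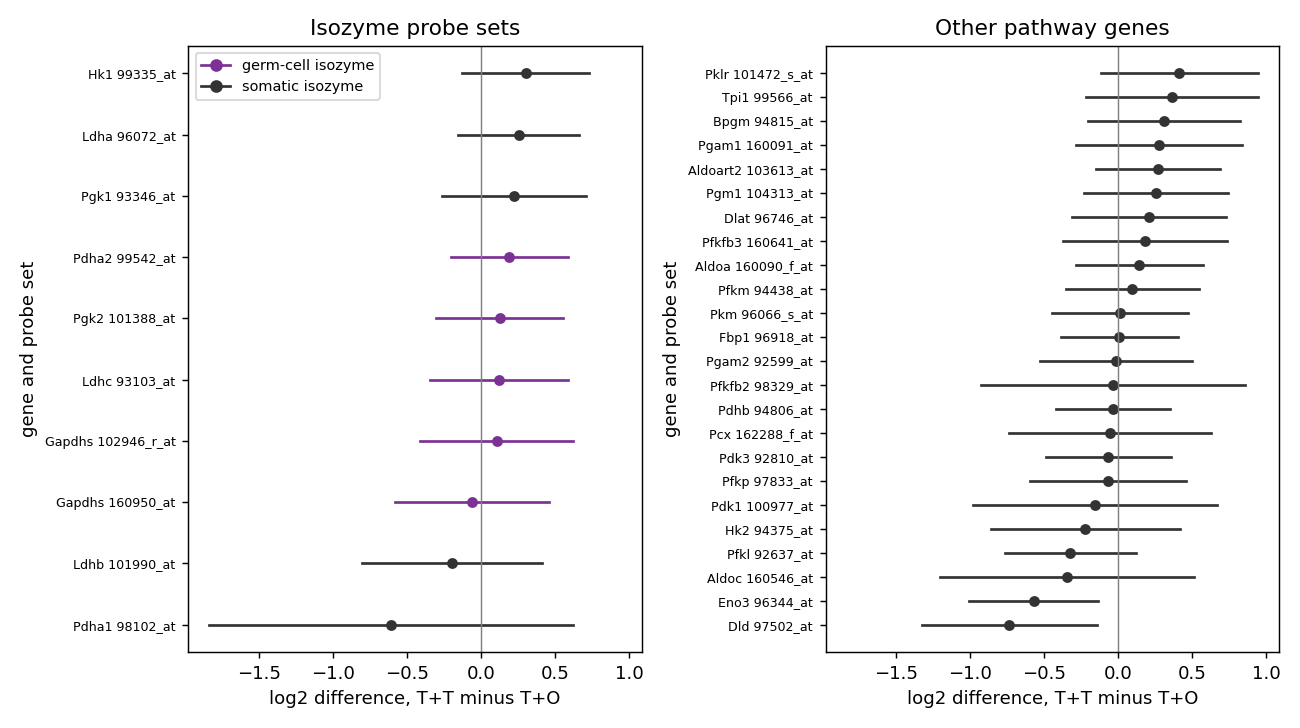
Log2 difference T+T minus T+O (x axis) with its 95% interval from limma for the 10 isozyme probe sets (left) and for 24 other genes of glycolysis and pyruvate use, 1 probe set each (right), with genes and probe sets on the y axes. All isozyme intervals include 0, and those of Eno3 and Dld lie below 0 before adjustment for the number of probe sets.

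The balance between the forms of an enzyme was followed as the log2 of the germ-cell signal minus that of its somatic partner on each array, where the scaling of the array cancels apart from the offset of 10. Only the change of this ratio between arrays is read. All 5 pairs were compared by an exact permutation test over the 4 choices of 1 array against 3, two-sided, for which the smallest p is 0.25; no pair could reach 0.05. The Pgk2 to Pgk1 ratio was 2.59 on the log2 scale on T+O and 2.43, 2.67 and 2.37 on T+T, a change of -0.10 with T+O inside the T+T values (exact permutation p = 1, adjusted 1). Leaving out T+T replicate 2 gave -0.19, leaving out replicate 1 gave -0.066 and leaving out replicate 3 gave -0.038. The Ldhc to Ldha ratio was 0.76 on T+O and 0.61, 0.74 and 0.53 on T+T. All 3 T+T arrays lay below T+O, by 0.13 on average, against an SD of 0.11 between them (exact permutation p = 0.50, adjusted 0.83). The Ldhc to Ldhb ratio was 4.78 on T+O and 5.42, 5.34 and 4.52 on T+T, so that replicate 3 lay on the other side of T+O from replicates 1 and 2 (exact permutation p = 1, adjusted 1).

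The Pdha2 to Pdha1 ratio was 4.15 on T+O and 4.74, 4.43 and 5.68 on T+T. It was higher on all 3 T+T arrays, by 0.80 on average with an SD of 0.65 (n = 3), and by 0.43 without replicate 3, where Pdha1 was dimmest (exact permutation p = 0.50, adjusted 0.83). The Gapdhs to Gapdh ratio, with the 5′ Gapdh set as the brightest, was 2.70 on T+O and 2.26, 2.24 and 2.02 on T+T. It was lower on all 3 T+T arrays by 0.52 on average, with an SD of 0.13 (exact permutation p = 0.25, adjusted 0.83). Against the middle Gapdh set the change was -0.25, and against the 3′ set -0.014. The Gapdh 3′ to 5′ ratio given above is made of the same 3′ and 5′ sets. It therefore restates the gap between these changes and is no separate evidence, and the cause of the gap was not tested.

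**Figure D4:**
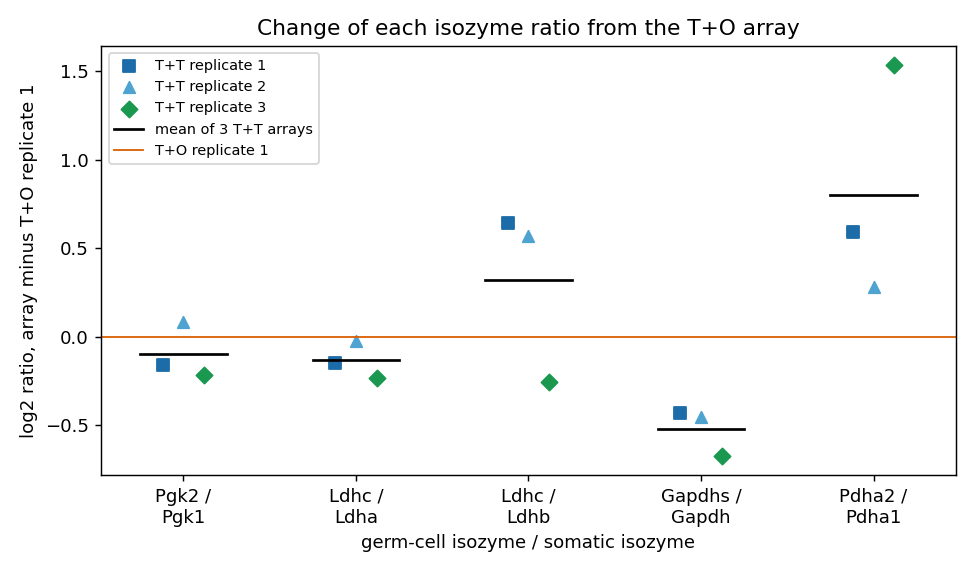
Log2 ratio of each germ-cell isozyme to its somatic partner (x axis), as the difference of each T+T array from T+O replicate 1 (y axis, log2), with a bar at the mean of the 3 T+T arrays. The Ldhc to Ldha and Gapdhs to Gapdh ratios lie below T+O on all 3 T+T arrays, the Pdha2 to Pdha1 ratio lies above it on all 3, and the other pairs lie on both sides.

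The rest of the pathway was read from a list of 44 genes of glycolysis and pyruvate use other than the isozymes. A probe set was named for 29 of them, and 24 genes remained after the filter. None passed the test in either direction (limma, 0 higher and 0 lower), against 0.0268% of all probe sets, and 2 of 24 had an unadjusted p under 0.05, near the 7.80% of all. None was shifted 1.5-fold or more from T+O in 1 direction on every T+T array, against 4.04%. The median log2 difference was -0.0032, with 12 of 24 above 0. T+O lay below all T+T arrays for 6 genes and above all for 3, against 29.5% and 23.7% of all probe sets.

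The lowest 2 genes were those with an unadjusted p under 0.05. Dld, the dihydrolipoamide dehydrogenase of the pyruvate dehydrogenase complex, had 220 on T+O and 115, 112 and 164 on T+T, a log2 difference of -0.73 ± 0.26 (SE). Eno3, the muscle enolase, had 457 on T+O and 290, 288 and 338 on T+T, a log2 difference of -0.57 ± 0.19 (SE). For both, all T+T arrays lay below T+O and replicate 3 lay nearest to it. The highest 2 were Pklr, the liver and red cell pyruvate kinase, with 62.1 on T+O and 90.2, 77.6 and 90.8 on T+T, and Tpi1, triosephosphate isomerase. Another Pklr probe set, 101471_at, did not pass the filter. It had 10.1 on T+O and 11.3, 4.78 and 15.3 on T+T, with T+O within the T+T values. Tpi1 had 833 on T+O and 1270, 1180 and 829 on T+T, so that replicate 3 was level with T+O.

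The remaining enzymes named here had smaller differences, none past the test. Pgam1, phosphoglycerate mutase, had 188 on T+O and 267, 247 and 184 on T+T, the same order of arrays as Tpi1. Aldoa, aldolase A, had 1032 on T+O and 1230, 1202 and 1005 on T+T, measured by a set named as shared within a gene family. A dimmer Aldoa set of the same kind, 161889_f_at, had 324 on T+O and 444, 438 and 337 on T+T, all above T+O. Pfkm, the muscle phosphofructokinase, had 447 on T+O and 461, 545 and 434. Pkm, pyruvate kinase M, had 779 on T+O and 861, 837 and 671. Hk2, the insulin-regulated hexokinase, had 119 on T+O and 76.8, 108 and 122. For Pfkm, Pkm and Hk2 the T+O array lay within the T+T values. Pdhb, the E1 beta partner of the Pdha subunits, had 883 on T+O and 831, 900 and 851, a log2 difference of -0.04.

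Pairs of germ-cell and somatic isozymes outside glycolysis were read in the same way, as a description. Hspa2, the heat shock protein of spermatocytes, had 1533 on T+O and 1752, 1956 and 1838 on T+T, all above T+O, while its general relative Hspa8 had 368 and 352, 394 and 374. The Hspa2 to Hspa8 ratio was higher on all 3 T+T arrays by 0.24 to 0.25 on the log2 scale, with a mean of 0.25. Cyct, the testis cytochrome c, had 262 on T+O and 183, 243 and 287, and the general form Cycs had 62.6 and 18.5, 27.7 and 47.4. The Cyct to Cycs ratio was higher on all 3 T+T arrays, by 0.72 on average on the log2 scale. Cox6b2, the testis form of a cytochrome oxidase subunit, had 3734 on T+O and 3835, 3905 and 3363 on its brightest probe set. Its partner Cox6b1 had 51.5 on T+O and 74.9, 72.7 and 85.2, all above T+O. The Cox6b2 to Cox6b1 ratio differed from T+O by -0.43, -0.36 and -0.78 on the log2 scale, the other way from the pairs before it. G6pd2, the germ-cell glucose-6-phosphate dehydrogenase, had 41.1 on T+O and 55.0, 65.3 and 70.7, and no partner was measured. None of these 7 genes passed the test (limma, against 0.0268% of all probe sets), and 0 had an unadjusted p under 0.05, against 7.80%; with 7 genes such counts are no result about them.

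The genes whose profile over the 4 arrays was closest to that of each germ-cell isozyme were named by the root mean square distance of centred log2 values. For Pgk2 they were Rangrf and Ctdsp2, with Pearson's r of 0.999 and 0.997. For Ldhc they were Eif3k and Synj2bp, for Gapdhs Trappc12 and Prkcd, and for Pdha2 Pkig and Pgls, with r from 0.994 to 1.000. With only 4 points, all sharing the arrays and their scaling, between 17 and 42 probe sets per isozyme had r above 0.99 of the 4676 to 6120 compared. Pgls, 6-phosphogluconolactonase of the pentose phosphate pathway, had 305 on T+O and 382, 349 and 330 on T+T, in the order of the arrays for Pdha2.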

How the data were processed

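The authors deposited a table of linear intensities, with 12488 probe sets on each of 4 arrays. The software, background correction and scaling behind these intensities are not given in the sources used here. Groups follow the sample titles, and the T+T array with no number in its title is called replicate 3. The 66 control probe sets were left out, and each array was multiplied so that its 2% trimmed mean equalled the mean of the 4. The offset of 10 added before log2 is the 25th percentile of scaled values, rounded, and it shrinks differences at low signal. The filter kept probe sets with a mean above the 40th percentile, which left 7453 of 12422. Gene symbols came from the platform annotation, updated by gene ID for 10817 of 10833 probe sets with 1 symbol; 396 had several symbols and 1193 none. T+T minus T+O was tested with limma 3.58.1 in R 4.3.3 (eBayes with intensity trend, two-sided, Benjamini-Hochberg over all kept probe sets, threshold 0.05), after testing on simulated data. All 4 arrays entered 1 fit, which gives the single T+O array the spread of T+T. The ratio tests and figures used Python 3.11.15. The members, lists and settings were chosen with earlier results of these data known. All isozyme probe sets are named; other pathway genes are named by the largest and smallest differences and a fixed set of enzymes, and Pdhb was added after its values were seen. No detection calls were used here, and the number of arrays limits the precision.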

Additional observations from a re-analysis of the deposited data

How the results depend on the processing

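No paired analysis was possible because only 1 array is titled T+O. No isozyme probe set passed the adjusted threshold under any of the 14 alternatives except T+T replicate 1 against T+O alone, which has no test. Shifts of 1.5-fold or more in 1 direction were counted under 12 alternatives, all but the block and the fit without intensity trend. No isozyme probe set had one under any of them. Settings that leave arrays out used the T+T arrays that remained. With T+T replicates 2 and 3 counted as withdrawn, T+T replicate 1 was set against each of the other arrays. Of 139 values of single probe sets, 125 kept their sign. The filter and the intensity trend do not enter the log2 difference. Values from the settings that change only these equal the main ones and could not turn. The sign turned for the brighter Gapdhs set after quantile scaling (-0.18), without scaling (-0.10) and with a block on the deposited level (-0.18), for Ldhc in the same 3 settings (-0.12, -0.091 and -0.11), and for Ldhb with the block (0.15). The block joins T+O with T+T replicate 3, so its values are those of replicate 3 alone against T+O and restate where that array lay. Without scaling it also turned for Pgk2 (-0.082) and Pdha2 (-0.017), where the median of all probe sets was -0.16. When T+T replicates 2 and 3 were counted as withdrawn, as their descriptions end, it turned for the dimmer Gapdhs set (0.30), Pgk2 (-0.071) and Pdha1 (0.21). The dimmer Gapdhs set also turned in T+T replicate 1 against T+O alone (0.18) and without T+T replicate 3 (0.080). On that set T+T replicates 1, 2 and 3 differed from T+O by 0.18, -0.020 and -0.34. Settings that leave out or regroup arrays, like the block, restate where each array lay. For the turns under other scaling, the cause was not tested.

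Of the ratios, Ldhc to Ldha became -0.28 and Gapdhs to Gapdh -0.80 after quantile scaling. Counting T+T replicates 2 and 3 as withdrawn, Gapdhs to Gapdh became -0.059 and Pdha2 to Pdha1 -0.014. With other Gapdh sets, chosen after the data were seen, Gapdhs to Gapdh became -0.25 (middle) and -0.014 (3′). The germ-cell median became -0.087 without scaling. The somatic median became 0.15 after quantile scaling, 0.035 without scaling, 0.18 with a larger offset (50th percentile) and 0.11 counting T+T replicates 2 and 3 as withdrawn. The filter at the 60th percentile removed Pdha1, so its ratio has no value there. Dim probe sets such as Pdha1 limit what can be seen.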

Other observations

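Mpc1, a subunit of the carrier that brings pyruvate into mitochondria, fell below the filter on low signals. It was therefore not in the main test and entered a fit only in the setting without the filter. It had 39.1 on T+O and 9.32, 13.5 and 12.7 on T+T replicates 1, 2 and 3, so that every T+T array lay at least 1.5-fold below T+O, with the T+T values under the filter level of 22.7. It was picked out after its values were seen.

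The second-brightest Cox6b2 probe set, 97351_i_at, had 2019 on T+O, 2460 and 2478 on T+T replicates 1 and 2, and 674 on T+T replicate 3. The brightest probe set of the same gene had 3363 on T+T replicate 3, against 3734 on T+O. T+T replicate 3 was thus the lowest array on both, by much more on the first. On a further, dim Cox6b2 probe set, with 32.6 on T+O and 32.2, 18.6 and 31.1 on T+T, replicate 2 was the lowest. This too was picked out after the values were seen.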
